A study of Mus musculus with 6 samples.

Results

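The proteasome genes of the mouse were examined in the renal cortex, as every gene whose symbol begins with Psma to Psmg followed by a digit. This rule found 50 of the 22040 genes listed. RNA-seq libraries of 2 groups, 3 in each, were compared, all from wild-type (WT) C57BL/6 mice, an inbred laboratory strain. The sham group stood against cortex collected 24 h into reperfusion, once both renal pedicles had been clamped for 30 min (IR24h), a model of acute kidney injury. The labels say no more of the sham group than that word, and ages are not given. Whether each library came from its own mouse is not stated either, so p-values measure the spread between these libraries, which may be technical.

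The proteasome is the protease complex that degrades proteins tagged with ubiquitin. Its barrel, the 20S core, stacks rings of alpha subunits, which gate the entry, on rings of beta subunits, of which Psmb5, Psmb6 and Psmb7 encode the catalytic ones. The 19S regulatory particle caps the barrel, with a ring of ATPases (Psmc genes) that unfold substrates and non-ATPase subunits (Psmd genes) that bind ubiquitin chains and remove them. Interferon gamma is known to induce the immunoproteasome subunits Psmb8, Psmb9 and Psmb10, which replace the constitutive catalytic subunits, and the activator PA28 (Psme1 and Psme2). By role, the 50 genes were 7 alpha subunits, 4 structural and 3 constitutive catalytic beta subunits, 3 immunoproteasome subunits, 6 19S ATPases and 11 19S non-ATPases. The others were 7 assembly chaperones, 4 activators, the regulator PI31 (Psmf1), 2 forms known from testis and thymus (Psma8 and Psmb11), and 2 further name matches (Psmc3ip and Psme2b).

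Libraries held 12877237 to 17061844 counts. Genes of the mitochondrial genome took 13.1 to 14.2% of the counts in sham, and 68.9, 26.2 and 49.2% in IR24h 1, 2 and 3, which left 4008001, 11804440 and 6755476 counts for all other genes. The depth behind a proteasome gene was thus lowest in IR24h 1. IR24h 2 had the lowest such share of the injured libraries and differed from IR24h 1 and 3 in the direction of several proteasome genes. Results are given with and without it. Because this choice rested partly on the same genes, calls without IR24h 2 are a description and not independent support. Leaving out IR24h 1 or IR24h 3 instead gave 1 proteasome gene called higher and 0 lower. The gene length that follows from count and FPKM (a level per length and library total) differed between sham and IR24h for 1866 of 14239 genes, 13.1%, and for 7 of the proteasome genes. These were Psma7, Psmb1, Psmb8, Psmb9, Psmc2, Psmd2 and Psmg2. For these 7 at least, a difference in how the values were made and one of injury cannot be told apart. An equal length in both groups does not show that a gene was counted alike in both. Of the 8 proximal tubule markers, 4 were called lower in IR24h, and 7 without IR24h 2, with all 3 injured libraries below all sham libraries for 8 of 8. Over all genes tested, these 3 shares were 7.62%, 24.5% and 21.7%. The summed level of the 8 markers lay below the sham range of 14330 to 15030 CPM (counts scaled to a common library size) at 2702, 4231 and 3426 CPM in IR24h 1, 2 and 3. Of 8 markers of other cortical cells, 1 (Kdr, endothelial) was called lower. Pecam1, also endothelial, was not called, with a log2 fold change of 0.22 ± 0.52 (SE). It was called higher without IR24h 2 (0.65) and had −1.49 with IR24h 2 as the only injured library. The part of these markers in the proteasome values was not tested. In bulk tissue, fewer cells of a type and less RNA per cell cannot be told apart.

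Of the 50 genes, 48 passed the filter on low counts. Psma8 had 2, 4 and 2 counts in sham and 0, 8 and 0 in IR24h, and Psmb11 had 0 in all 6 libraries. Of 3 germ cell markers, set beside the testis form Psma8, 1 was tested and called lower, and Dazl was at 0 in all libraries. In the comparison of IR24h with sham, 1 of the 48 was called higher and 0 lower (edgeR's quasi-likelihood test, Benjamini-Hochberg adjusted p under 0.05 over all genes). Of all 13609 genes tested, 16.3% were called, 8.65% as higher and 7.62% as lower. The called gene was Psme2b, a copy of Psme2. At an unadjusted p under 0.05, 8 of the 48 passed, 16.7%, against 4645 of all genes, 34.1%. For 20 of the 48, the 95% interval of the log2 fold change lay within 2-fold in both directions. Among all genes this share was 17.4%. The median log2 fold change was 0.15 over the 48 genes and 0.05 over all genes tested.

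**Figure D1:**
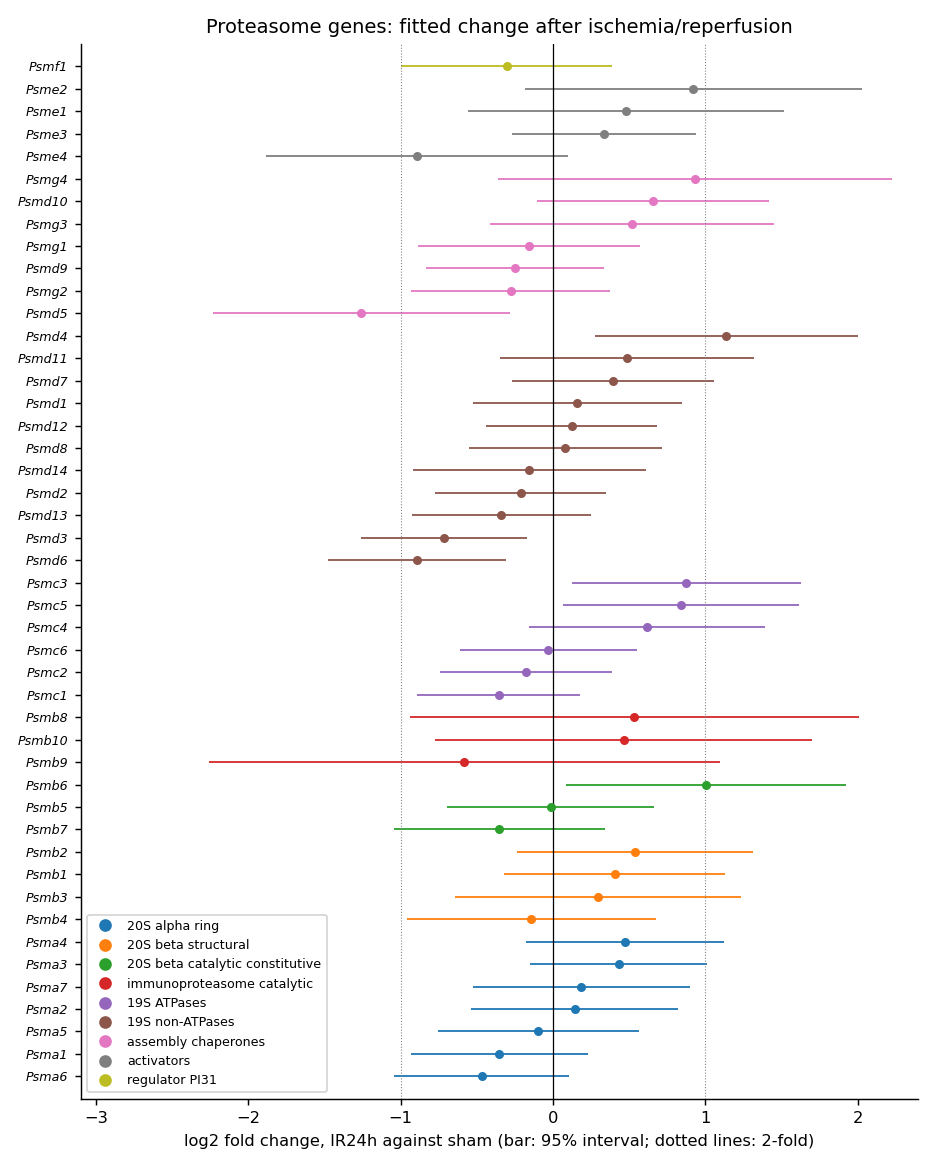
Fitted log2 fold change (x axis, IR24h against sham, bars giving 95% intervals) of 46 proteasome genes, coloured by role; Psme2b and Psmc3ip are left out. All points lie between −1.26 (Psmd5) and 1.14 (Psmd4), and most intervals cross 0.

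The libraries of a group did not overlap with those of the other for 12 genes. Those with all IR24h libraries above all sham libraries were Psma3, Psmc3, Psmd4, Psme3 and Psme2b, 5 of 48 against 19.9% of all genes. Those with all IR24h libraries below were Psma1, Psma6, Psmc1, Psmd3, Psmd6, Psmd5 and Psme4, 7 of 48 against 21.7% of all genes. Without IR24h 2, 14 of 48 were called higher and 4 lower, where 48.3% of all genes were called (23.9% higher and 24.5% lower). With IR24h 2 as the only injured library, 6 were called higher and 9 lower, where 38.1% of all genes were called (18.8% higher and 19.2% lower). That last fit assumes that a lone injured library varies as the sham libraries do. Higher in both of these fits was Psme2b, and lower in both were Psmd5 and Psmd6. Psmb3 and Psme1 were called higher without IR24h 2 and lower with it as the only injured library; the difference between the injured libraries was not tested.

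None of the 14 constitutive 20S core genes was called, where 16.3% of all genes were. Without IR24h 2, 5 of the 14 were called higher and 0 lower, where 23.9% and 24.5% of all genes were. Psmb1, called among these 5, had an implied length of 6178 bases in sham and 1036 bases in IR24h. That of Psma7, also among the 14, was 4413 and 4282 bases. The summed level of the 14 was 1064, 974 and 1227 CPM in sham and 1267, 882 and 1545 CPM in IR24h 1, 2 and 3, so the groups overlapped. The 14 genes had a median log2 fold change of 0.17, with 0.36 without IR24h 2 and −0.24 with IR24h 2 alone. Among the alpha subunits, Psma4 had the highest value, with 92.0, 80.2 and 105 CPM in sham and 144, 92.4 and 149.5 CPM in IR24h (log2 fold change 0.47 ± 0.28 (SE), adjusted p = 0.267). IR24h 2 lay inside the sham range of Psma4, and without it the gene was called higher (0.66, adjusted p = 0.0218). The lowest was Psma6, with 71.1, 66.3 and 78.8 CPM in sham and 41.1, 57.7 and 57.6 CPM in IR24h (−0.47 ± 0.25, adjusted p = 0.223). All 3 injured libraries were below the sham libraries for this gene.

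Structural beta subunits complete the rings without a catalytic site. Psmb2 stood highest among them, at 34.2, 37.2 and 48.9 CPM in sham and 47.6, 42.7 and 84.3 CPM in IR24h (0.54 ± 0.33, adjusted p = 0.291). Psmb4 stood lowest, at 145, 119 and 170 CPM in sham and 154, 74.7 and 166 CPM in IR24h (−0.14 ± 0.35, adjusted p = 0.803). Only IR24h 2 lay outside the sham range of Psmb4, below it.

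The constitutive catalytic genes Psmb5, Psmb6 and Psmb7 encode the chymotrypsin-like, caspase-like and trypsin-like sites. Psmb5 had 108, 95 and 108 CPM in sham and 88.4, 78.3 and 141 CPM in IR24h (−0.02 ± 0.29, adjusted p = 0.975). Its injured libraries lay on both sides of the sham range, and 54.1% of its 50-base stretches occur in another gene, so its counts are uncertain. The same holds for Psma5 (50%), Psmd9 (24.9%), Psme2 (28.3%) and Psme2b (69.3%). Psmb6 had 90.2, 80.5 and 103 CPM in sham and 207, 89.1 and 253 CPM in IR24h (1.01 ± 0.40, adjusted p = 0.120). IR24h 1 and 3 were above every sham library and IR24h 2 was within their range. Without IR24h 2, Psmb6 was called higher (log2 fold change 1.33, adjusted p = 0.00199). Psmb7 had 102, 89.6 and 121 CPM in sham and 54.8, 89.6 and 99.6 CPM in IR24h (−0.35 ± 0.30, adjusted p = 0.439). Thus the 3 genes of one catalytic set had fitted values on both sides of 0, none of them called.

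The immunoproteasome genes were expressed at a far lower level than their constitutive counterparts. Per kilobase of implied length, sham mean levels were 2.27, 1.03 and 3.51 CPM for Psmb8, Psmb9 and Psmb10, and 68.2, 29.3 and 29.2 CPM for Psmb5, Psmb6 and Psmb7. The implied length exceeded the annotated exon bases for 47 of the 48 tested genes, so these levels hold on the authors' length scale only. Psmb8 and Psmb9 lie close together on chromosome 17 (34197721 to 34201454 and 34181987 to 34187764, GRCm38), in the major histocompatibility complex. Genes on the opposite strand cover 14.7% of the exon bases of Psmb8 and 5.79% of those of Psmb9 (Tap1), and whether counting used strand is not stated. Psmb8 had 17.1, 9.13 and 10.03 CPM in sham and 18.5, 4.34 and 29.9 CPM in IR24h (0.54 ± 0.63, adjusted p = 0.583). Psmb9 had 12.6, 4.18 and 4.80 CPM in sham and 7.24, 1.13 and 6.29 CPM in IR24h (−0.58 ± 0.72, adjusted p = 0.602). For both genes IR24h 2 was the lowest of the 6 libraries. Psmb10 had 20.1, 11.1 and 11.4 CPM in sham and 13.9, 9.10 and 35.7 CPM in IR24h (0.46 ± 0.53, adjusted p = 0.571). Values of each of these genes overlapped between the groups, and their intervals were among the widest of the 48 genes.

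The sham libraries also differed among themselves in these genes. Sham 1 held the highest sham value for all 5 interferon-inducible genes (Psmb8, Psmb9, Psmb10, Psme1 and Psme2), for 7 of the 42 other tested genes apart from Psme2b, and for 33.1% of all genes tested. It also held the highest sham value for 14 of 14 tested genes of a list of interferon and antigen-processing genes. That list summed to 1743, 836 and 862 CPM in sham and 951, 645 and 1588 CPM in IR24h, with 0 of 14 called, 1 at an unadjusted p under 0.05 and a median log2 fold change of −0.42. The highest value in the list was that of Tapbp (tapasin), at 0.54 ± 0.37 (adjusted p = 0.339). Markers of leukocytes, cells known to be rich in immunoproteasome, had 5 of 11 tested genes called higher (Cd68, Itgam, Lyz2, S100a8 and S100a9) and 0 lower, where 8.65% of all genes were called higher and 7.62% lower. Cd74 and Adgre1, named after their values were seen, lay below every sham library in all 3 injured libraries. Cd74 had a log2 fold change of −1.11 ± 0.44 (adjusted p = 0.124), and Adgre1 one of −1.51 ± 0.84 (adjusted p = 0.241) that was −3.74 without IR24h 2 (adjusted p = 0.000815). The 18 listed summed to 193 to 211 CPM in sham and to 208, 131 and 317 CPM in IR24h, with Ly6g at 0 in all libraries and the pan-leukocyte gene Ptprc at 8.69 ± 2.82 CPM in sham and 8.36 ± 2.01 CPM in IR24h (SD, n = 3). The part of these markers in the immunoproteasome values was not tested.

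The ratio of each immunoproteasome subunit to the constitutive subunit it replaces was formed per base within each library. Psmb8 over Psmb5 was 0.0452, 0.0275 and 0.0264 in sham and 0.0826, 0.0219 and 0.0836 in IR24h. Psmb10 over Psmb7 was 0.174, 0.108 and 0.0835 in sham and 0.223, 0.0893 and 0.315 in IR24h. Both overlapped between the groups, with log2 differences of 0.74 and 0.67 (exact permutation test, 2-sided over 20 assignments, p = 0.4 and 0.3, both 0.4 adjusted over the 3 pairs). Psmb9 over Psmb6 was 0.0619, 0.0231 and 0.0208 in sham and 0.0172, 0.00622 and 0.0123 in IR24h, lower in 3 of 3 injured libraries. The log2 difference was −1.50 (exact permutation p = 0.1, the smallest that 3 against 3 libraries allow, adjusted p = 0.3). Psmb8 and Psmb9 are among the genes whose implied length differed between the groups, and on counts without length the differences were 0.27 for Psmb8 over Psmb5 and −1.65 for Psmb9 over Psmb6.

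**Figure D2:**
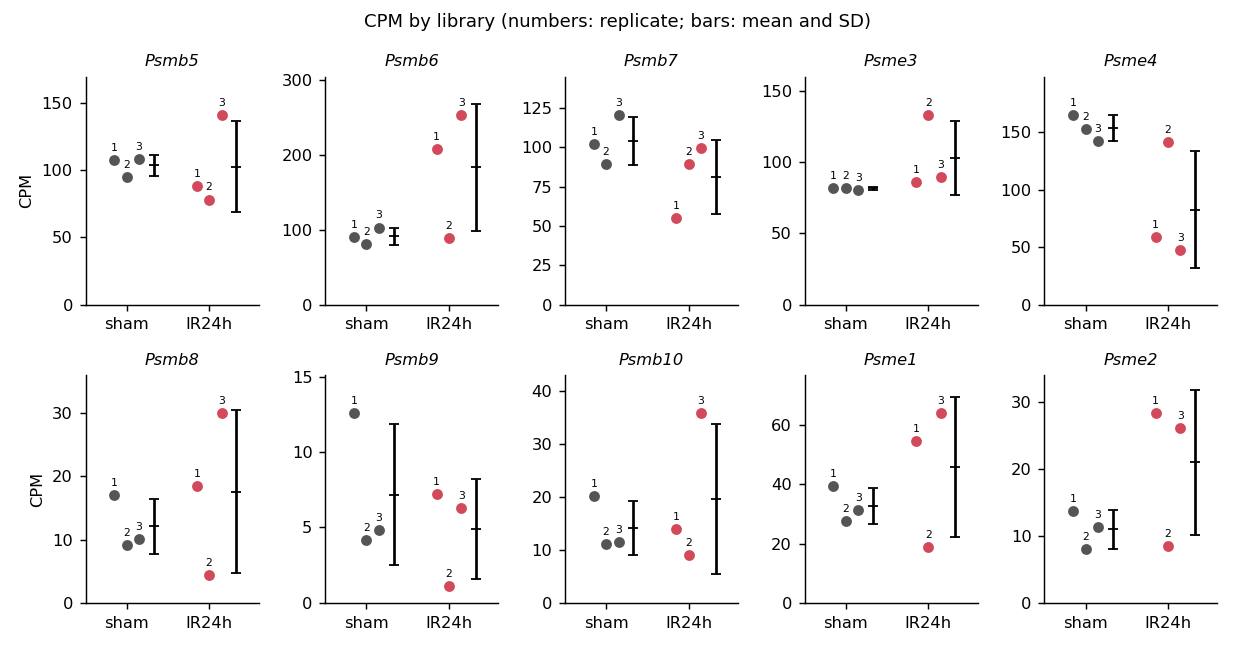
CPM (y axis, starting at 0) of the catalytic and activator genes in each library, with replicate numbers beside the points and bars giving the mean and SD of 3 libraries. IR24h 2 lies apart from IR24h 1 and 3 in Psmb6, Psme1, Psme2 and Psme4, and sham 1 is the highest sham library in Psmb8, Psmb9 and Psmb10.

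Activators open the barrel without the 19S particle. PA28 alpha, encoded by Psme1, had 39.5, 27.7 and 31.3 CPM in sham and 54.7, 18.96 and 64.0 CPM in IR24h (0.48 ± 0.44, adjusted p = 0.480). For PA28 beta, encoded by Psme2, the values were 13.8, 7.98 and 11.3 CPM in sham and 28.3, 8.43 and 26.1 CPM in IR24h (0.92 ± 0.48, adjusted p = 0.212). These genes are near neighbours on chromosome 14 (Psme1 from 55578123 to 55581529). In both, IR24h 1 and 3 exceeded every sham library and IR24h 2 did not. Without IR24h 2 both were called higher, Psme1 at 0.85 (adjusted p = 0.0163) and Psme2 at 1.30 (adjusted p = 0.00746). Of the 50-base stretches of Psme2, 28.3% occur in its copy Psme2b, described below, so the counts of Psme2 are uncertain. The nuclear PA28 gamma gene Psme3 had 81.9, 82.2 and 80.7 CPM in sham and 85.8, 133 and 89.9 CPM in IR24h (0.34 ± 0.26, adjusted p = 0.397). All injured libraries were above all sham libraries, with IR24h 2 the highest. Psme4, which encodes the large activator PA200, had 165, 153 and 143 CPM in sham and 58.7, 141 and 47.8 CPM in IR24h (−0.89 ± 0.42, adjusted p = 0.182). IR24h 2 lay just under the sham range, and without it Psme4 was called lower (−1.54, adjusted p = 0.00119). PI31, encoded by Psmf1, binds the core and was first described as an inhibitor; it had 31.4, 33.2 and 38.0 CPM in sham and 21.6, 23.0 and 38.5 CPM in IR24h (−0.30 ± 0.30, adjusted p = 0.506).

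Psme2b, the called gene, is a copy of Psme2 without introns. It lies on chromosome 11 from 48945354 to 48946190 on the minus strand (GRCm38), and Psme2 lies on chromosome 14 from 55587441 to 55591113, also on the minus strand. Their coding sequences of 717 bases were identical at 712 positions, 99.3%, and the longest identical run was 311 bases. Of the 50-base stretches of Psme2b, 69.3% occur in another gene, and reads from these cannot be assigned by sequence. Psme2b had 12, 10 and 13 counts in sham and 365, 270 and 594 in IR24h, or 0.685, 0.481 and 0.701 CPM against 51.8, 13.8 and 51.9 CPM. It rose by a log2 fold change of 5.96 ± 0.63 (SE; adjusted p = 0.00204), from 0.622 ± 0.123 to 39.2 ± 22.0 CPM (SD, n = 3), higher in 3 of 3 injured libraries. Psme2b held 4.74, 5.68 and 5.86% of the counts of both genes in sham and 64.7, 62.1 and 66.5% in IR24h. Exact 95% intervals ran from 2.48 to 10.2% over the sham libraries and from 57.3 to 69.6% over the IR24h libraries, covering counting error only. Summed over both genes, the level was 14.5, 8.46 and 12.0 CPM in sham and 80.1, 22.2 and 78.1 CPM in IR24h, a log2 difference of 2.19 (exact permutation p = 0.1, the smallest possible). The sources used here do not say how reads that match both genes were counted. The implied length was the same in both groups, 837 bases for Psme2b and 3518 bases for Psme2. This does not show that reads matching both genes were counted alike in sham and IR24h. The part of read assignment in this rise was not tested.

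**Figure D3:**
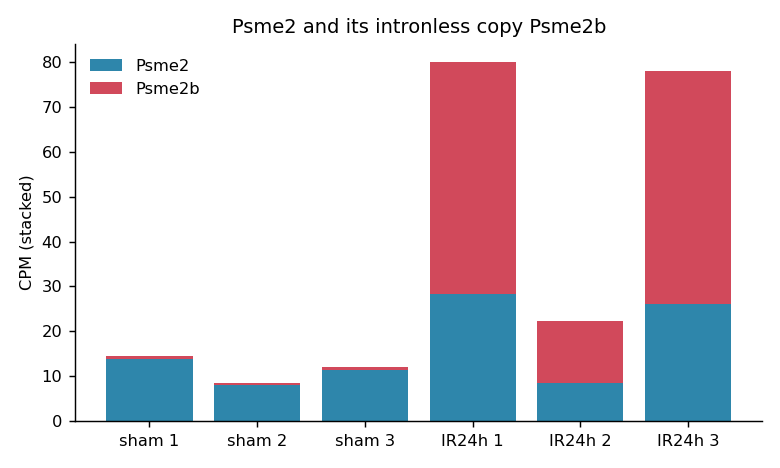
Stacked CPM (y axis) of Psme2 (blue) and its intronless copy Psme2b (red) in each of the 6 libraries. Psme2b is a thin band in the sham libraries and 62.1 to 66.5% of both in the IR24h libraries.

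Of the 19S particle, none of the 17 genes with the Psm name was called. Its lid subunit Sem1, described with the pathway list, was called higher, a call lost under several alternatives. Adrm1, a 19S subunit also on that list, was not called (0.29 ± 0.25, adjusted p = 0.442). Of all genes tested, 16.3% were called. Without IR24h 2, 4 of the 17 were called higher and 2 lower, where 23.9% and 24.5% of all genes were. Summed levels of the 17 were 1367, 1257 and 1514 CPM in sham and 1470, 1492 and 1615 CPM in IR24h, with a median log2 fold change of 0.08. Its ATPases ranged from −0.36 to 0.88 and its non-ATPases from −0.89 to 1.14. Psmc3, an ATPase, had 110, 100.1 and 119 CPM in sham and 223, 123 and 259 CPM in IR24h (0.88 ± 0.32, adjusted p = 0.102), all injured libraries above sham, and was called higher without IR24h 2 (1.13, adjusted p = 0.00254). Psmc1, another ATPase, had 83.7, 74.8 and 93.3 CPM in sham and 57.9, 69.4 and 69.3 CPM in IR24h (−0.36 ± 0.23, adjusted p = 0.312), all below sham. ATPases of a single ring thus lay on both sides of 0.

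Among the non-ATPases, the ubiquitin receptor Psmd4 (Rpn10) had 55.3, 45.5 and 63.4 CPM in sham and 151, 63.8 and 146 CPM in IR24h (1.14 ± 0.37, adjusted p = 0.0749). IR24h 2 exceeded the highest sham library by a small margin, and without it Psmd4 was called higher (1.44, adjusted p = 0.00161). Psmd6, a lid subunit, had 62.6, 68.0 and 69.9 CPM in sham and 27.8, 37.5 and 42.5 CPM in IR24h (−0.89 ± 0.25, adjusted p = 0.0507), and the groups did not overlap. Psmd6 was called lower without IR24h 2 (adjusted p = 0.0152) and with it as the only injured library (adjusted p = 0.0153). Psmd3, another lid subunit and named here after its values were seen, had 182, 184 and 221 CPM in sham and 113, 130 and 115 CPM in IR24h (−0.72 ± 0.23, adjusted p = 0.0747), and was called lower without IR24h 2 (−0.79, adjusted p = 0.0108). DESeq2 called Psmc3 and Psmd4 higher and Psmd3, Psmd5 and Psmd6 lower, and limma-voom called Psmd6 lower. The share of all genes called by DESeq2 or limma-voom was not counted, so these calls have no background beside them.

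Assembly chaperones hold ring and base intermediates together before the particle is complete. Psmg4, a chaperone of the alpha ring, had 9.14, 6.78 and 7.55 CPM in sham and 19.9, 4.29 and 20.9 CPM in IR24h (0.93 ± 0.56, adjusted p = 0.273). IR24h 2 was the lowest of the 6 libraries and IR24h 1 and 3 the highest, and without IR24h 2 the gene was called higher (1.38, adjusted p = 0.00294). Psmd5, a chaperone of the 19S base, had 42.2, 44.0 and 46.9 CPM in sham and 7.96, 25.7 and 21.7 CPM in IR24h (−1.26 ± 0.42, adjusted p = 0.0784), with no overlap. It was called lower without IR24h 2 (−1.57, adjusted p = 0.0178) and with it as the only injured library (−0.78, adjusted p = 0.0198). The median over the 7 chaperones was −0.16. Psmc3ip, a recombination factor that carries the name of its binding partner, had 2.57, 2.50 and 2.21 CPM in sham and 2.56, 3.63 and 4.81 CPM in IR24h (0.60 ± 0.37, adjusted p = 0.286).

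**Figure D4:**
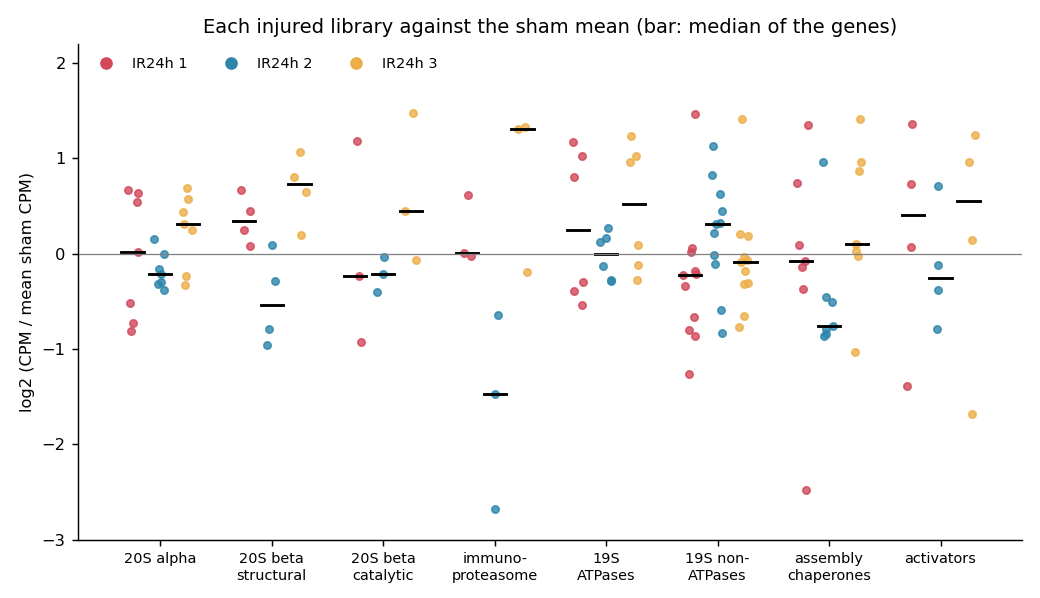
Log2 ratio of each gene's CPM to its sham mean (y axis) in IR24h 1, 2 and 3, by role, with bars for the median over the genes of a role. The immunoproteasome median is 0.01, −1.47 and 1.31 in IR24h 1, 2 and 3, and the 19S non-ATPase median is 0.31 in IR24h 2 and −0.23 and −0.09 in IR24h 1 and 3.

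The injured libraries differed in the order of the roles. In IR24h 2 the role medians, as log2 ratios to the sham mean, were −0.54 for structural beta subunits, −1.47 for immunoproteasome subunits and −0.76 for chaperones, against 0.31 for 19S non-ATPases. In IR24h 3 they were 0.73, 1.31 and 0.10, against −0.09 for 19S non-ATPases. In IR24h 1 they were 0.35, 0.01 and −0.07, against −0.23 for 19S non-ATPases. In IR24h 1 and 3, but not in IR24h 2, longer transcripts tended to have lower values. Over 47 genes without Psme2b, Pearson's r between the log2 ratio and the log2 length of the longest transcript was −0.43, 0.05 and −0.53 in IR24h 1, 2 and 3, and 0.00, 0.06 and −0.08 in sham 1, 2 and 3. Spearman's rho in the injured libraries was −0.33, 0.14 and −0.45. Over all genes tested, r was −0.11, 0.20 and −0.20 in the injured libraries and 0.18, 0.21 and −0.32 in sham. These are correlations across genes of a library, which are not independent, and are given as a description. The longest transcript had a median of 1220 bases in the 20S core and 1983 bases in the 19S particle. The part of length in the difference between roles was not tested.

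**Figure D5:**
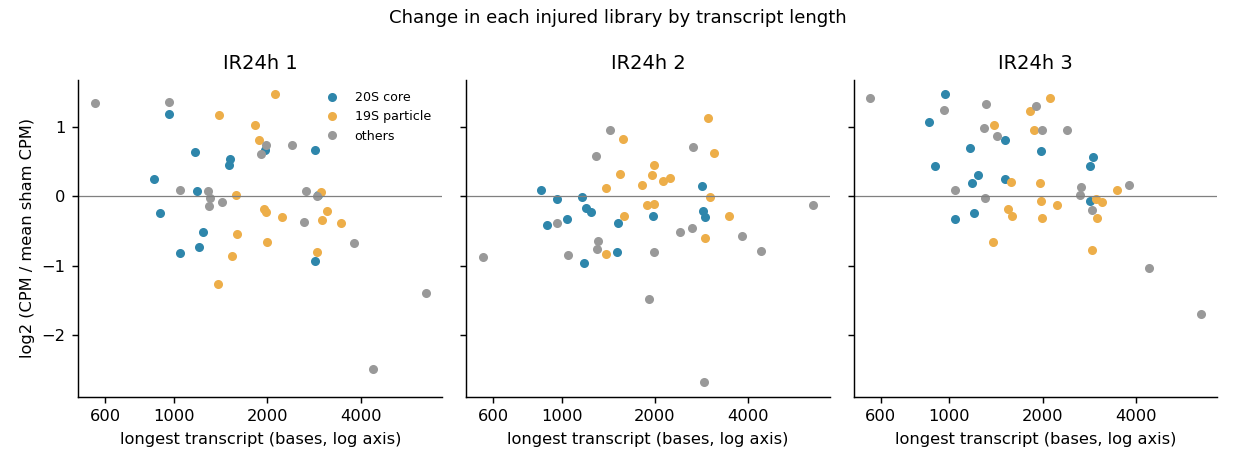
Log2 ratio to the sham mean (y axis) against the longest transcript in bases (x axis, log scale) for 47 genes in each injured library, with 20S core genes in blue, 19S genes in yellow and others in grey. Longer transcripts tend to lie lower in IR24h 1 and 3 (r −0.43 and −0.53) and not in IR24h 2 (r 0.05).

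The promoters were searched because proteasome genes are known targets of the stress factors NRF1 and NRF2, which bind antioxidant response elements, and of interferon signalling. RefSeq windows from 250 bases before to 50 bases after the start (GRCm38.p6) matched 42 of the 50 genes, with 45 windows. Each motif was searched on both strands, and no match overlapped one of another motif. The antioxidant response element core TGACNNNGC occurred in 6 of 45 windows, 13.3% against 12.4% of all 32851 windows. These belonged to Psmb5, Psmb6, Psmc6, Psmd12, Psmd9 and Psme4. The gamma-activated site TTCNNNGAA occurred in 3 windows, 6.67% against 8.30%, the interferon-stimulated response element in 5, 11.1% against 3.44%, and the CCAAT box in 15, 33.3% against 37.4%. Windows with the gamma-activated site belonged to Psmb8, Psmd2 and Psmg1. Those with the interferon-stimulated response element belonged to Psmb3, Psmd4, Psmd9, Psme1 and Psmg4, and 0 of 3 immunoproteasome windows had it. Matches are a description and not shown binding sites. The 3 stretches below lie before the RefSeq starts of catalytic genes and have the match in capitals, those of Psmb6 (chr11:70525318-70525356, plus strand) and Psmb5 (chr14:54618013-54618072, minus strand) with the antioxidant core and that of Psmb8 (chr17:34198068-34198127, plus strand) with the gamma-activated site. The Psmb8 stretch lies past the start that GENCODE gives for the gene, within its span, and the end of the Psmb5 stretch also reaches into the GENCODE span.
Psmb6: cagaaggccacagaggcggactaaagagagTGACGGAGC
Psmb5: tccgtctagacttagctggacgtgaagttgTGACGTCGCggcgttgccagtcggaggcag
Psmb8: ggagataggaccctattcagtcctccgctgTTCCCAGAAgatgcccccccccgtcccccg
Psmb5 and Psmb6 had fitted log2 fold changes of −0.02 and 1.01, neither called. The part of the antioxidant core in these values was not tested.

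Other genes of the ubiquitin-proteasome pathway were taken from a list of 29, of which 28 were in the table and all 28 were tested. Of these, 1 was called higher and 1 lower, where 8.65% of all genes were called higher and 7.62% lower. Without IR24h 2, 4 were called higher and 9 lower, where those shares were 23.9% and 24.5%. The median log2 fold change of the 28 was −0.07. Sem1, which encodes the smallest lid subunit of the 19S particle and does not carry the Psm name, had 27.6, 23.6 and 35.6 CPM in sham and 176, 43.5 and 166 CPM in IR24h. It rose by 2.15 ± 0.52 (adjusted p = 0.0317), higher in 3 of 3 injured libraries, and the call was lost without any single sham library, without IR24h 1 or 3, with library size alone as the scaling and with limma-voom. Fbxo7, an F-box protein that binds PI31, had 95.8, 78.0 and 90.5 CPM in sham and 33.4, 27.8 and 30.4 CPM in IR24h. It fell by 1.53 ± 0.23 on the log2 scale (adjusted p = 0.00712), lower in 3 of 3, and the call was lost without sham 1 or 3. Nfe2l1, which encodes NRF1, stood at 44.0 ± 2.51 CPM in sham against 38.0 ± 11.3 CPM in IR24h (SD, n = 3; adjusted p = 0.633).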

How the data were processed

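Renal cortex RNA was sequenced in 3 sham and 3 IR24h libraries. Per the file headers, the authors deposited raw counts of reads per gene and FPKM values. Per the submitters' processing notes, CASAVA 1.8 and TopHat2 2.0.6 were used, and mm10 is named as a genome build beside GRCh38. The sources used here name no counter, annotation or strand setting. FPKM served only to recover the implied gene length (genes with at least 5 counts, tolerance 0.01 on the log2 scale). Of 22040 genes, 83 without sham values were left out.

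Counts were filtered with edgeR's expression filter, scaled by TMM and tested with edgeR 4.0.16 (quasi-likelihood, 2-sided, R 4.3.3) over 13609 genes. CPM uses the TMM-scaled library sizes. The biological coefficient of variation was 0.394. The script was tested on simulated data. Alternatives used limma 3.58.1 and DESeq2 1.42.0. Tables and figures used Biopython 1.88, matplotlib 3.10.9, SciPy 1.17.1, pandas 2.3.3 and NumPy 2.4.6 in Python 3.11.15. Coordinates, exons and shared stretches came from GENCODE M21 (GRCm38, the assembly also called mm10). Values in every library are given for the catalytic, immunoproteasome and activator genes, for the genes with the highest and lowest change in each other role, and for called genes. The members and lists were chosen with earlier results of these data known. Some items fixed for naming or printing are not reported here.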

Additional observations from a re-analysis of the deposited data

How the results depend on the processing

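Psme2b was called higher under every alternative run. The number of proteasome genes called higher was 3 with DESeq2 and 6 with IR24h 2 as the only injured library, a fit added after the data were seen, and 1 to 14 when single libraries were left out. The number called lower was 1 with limma-voom, 3 with DESeq2, 9 with IR24h 2 alone and 0 to 4 when single libraries were left out; the highest counts, 14 and 4, came without IR24h 2. For the pathway list, the number called higher was 0 with limma-voom and with scaling by library size alone, 2 with upper-quartile scaling, the replicate block, DESeq2 and IR24h 2 alone, and 0 to 4 when single libraries were left out. The number called lower was 3 with DESeq2, 2 with IR24h 2 alone and 0 to 9 when single libraries were left out. The share of all genes called was counted only for the main fit, without IR24h 2 and with IR24h 2 alone. Under the other alternatives these numbers thus have no background beside them. The cause was not tested.

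Of 299 log2 fold changes of 23 genes under alternatives, 268 kept direction and side of the threshold, 15 passed the threshold anew (10 of them without IR24h 2) and 16 changed sign. Library size alone moved the median of all genes from 0.05 to −0.39, and gave −0.0857 for Psmb8, −0.0515 for Psmb10, −0.131 for Psme1, −0.0334 for Psme3 and −0.0535 for Psma4. Psmb5 was 0.0967 with upper-quartile scaling and 0.0035 without mitochondrial genes. Leaving out single libraries gave −0.32 to 0.14 for Psmb5, −0.11 to 1.002 for Psmb8, −0.985 to 0.0859 for Psmb9, −0.31 to 0.81 for Psmb10 and −0.35 to 0.14 for Psmb4. The value of 0.0859 for Psmb9 came without sham 1, the library with its highest level. Without any other single library the Psmb9 value stayed below 0. The 3 ratios of immunoproteasome to constitutive subunits kept their direction when single libraries were left out. They also kept it on counts without length, which left Psmb10 over Psmb7 unchanged at 0.67. Deviations from the group mean correlated at −0.11, 0.12 and 0.23 between same-numbered sham and IR24h libraries. Between differently numbered ones they correlated at −0.265 to 0.179. With 3 libraries per group such values cannot settle pairing, and the numbers were not taken as pairs because the labels give none. With the replicate block, 1 proteasome gene was called higher and 0 lower. Counts per library were as low as 10 for Psme2b and 18 for Psmc3ip, which limits the precision of their levels.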
